A study of Ovis aries with 2 samples.

Results

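CCR7-positive CD4 T barcodes of sheep blood numbered 132 of the 17884 barcodes in 2 droplet single-cell RNA libraries of peripheral blood mononuclear cells (PBMCs). They were chosen on raw counts of unique molecular identifiers (UMIs, 1 per captured transcript), among barcodes with at least 200 genes and at most 15% mitochondrial UMIs. A member had at least 1 UMI of CD3D or CD3E, at least 1 of CD4, at least 1 of CCR7, and none of CD8A, CD8B or FOXP3. It also had at most 1 UMI of SOX13 plus RHEX and at most 1 of MS4A1, CD79B and PAX5 together, which mark SOX13-high T cells and B cells. No entry of the count tables was named CD3G, so that gene did not enter the choice. The same gate with CCR7 at 0 held 1835 barcodes, which serve as the comparison and are called CCR7-zero.

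The A.G.-ES library came from PBMCs of animals that had a drug-eluting suture of astragaloside IV and glycyrrhizic acid embedded on both sides at the acupoint ST36. Animals without an implant gave the untreated library. The series title names weaned lambs and the balance of regulatory and Th17 cells as the subject. The labels give 1 library per group and no number, breed or sex of animals, and cells were processed without culture. No replicate exists for either treatment, so no difference between treatments was tested and each one below compares these 2 libraries.

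CCR7 is the chemokine receptor that leads T cells from blood into lymph nodes, and naive and central memory T cells carry it. In mouse and human T cells, LEF1 and TCF7 (partner transcription factors of the Wnt pathway), FOXP1 (which holds naive cells quiescent) and BACH2 (which restrains effector genes) maintain the unactivated state. Helper cells that have met antigen gain integrins such as ITGB1 and S100 proteins, and many of them lose CCR7.

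The A.G.-ES library held 44485442 UMIs in 9638 barcodes and the untreated library 55861418 in 8246, of which 9452 and 8088 were kept. The libraries shared 61 barcode sequences, and no member carried a shared one. UMIs of Y-linked genes came to 19.1 CPM (UMIs of a gene per 1000000 UMIs) in the A.G.-ES library and 799 CPM in the untreated one, and to 11.8 and 1380 CPM in their members. Members had a median of 4974.5 UMIs in A.G.-ES and 6874 UMIs in untreated blood. CCR7-zero barcodes had medians of 4565 UMIs in A.G.-ES and 5011.5 UMIs in untreated blood. The animals, their sex, depth and treatment cannot be told apart between 2 libraries.

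Members were more frequent in A.G.-ES blood, with 112 of 9452 kept barcodes (1.18%, 95% exact binomial interval 0.977 to 1.42%), than in untreated blood, with 20 of 8088 (0.247%, interval 0.151 to 0.382%). CD4 T barcodes as a whole followed the same order, at 16.8% of kept barcodes in A.G.-ES and 4.65% in untreated blood. All intervals here cover counting error only, and cells of 1 library are not replicates. A share of barcodes cannot tell more CD4 T cells from fewer cells of other kinds.

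Most members rested on 1 CCR7 UMI, which was the case for 91 of 112 in A.G.-ES and 16 of 20 in untreated blood. A further 15 and 3 members had 2 CCR7 UMIs, and 6 and 1 had 3 or more, with a highest value of 4 in A.G.-ES and 3 in untreated blood. CD4 stood at exactly 1 UMI in 54 A.G.-ES and 10 untreated members. The B-cell genes of the gate stood at 1 UMI in 5 A.G.-ES and 6 untreated members. With these genes, SOX13 and RHEX all at 0, 106 of 112 A.G.-ES and 14 of 20 untreated members remained. Of CCR7-zero barcodes, 1381 of 1479 in A.G.-ES and 314 of 356 in untreated blood remained. Just outside the gate, 5 A.G.-ES and 3 untreated barcodes were left out for FOXP3, 8 and 3 for a single CD8 UMI, and 0 and 1 for a SOX13 plus RHEX sum of 2. These are the values that chose the members.

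LEF1 and TCF7 are the markers of the label that the gate did not use. LEF1 was detected in 96.4% of A.G.-ES members and in 100% of untreated members, and TCF7 in 55.4% and 60% of them. Every member with a TCF7 UMI also had LEF1 (62 of 112 and 12 of 20). In B-cell barcodes, which should lack LEF1, 4.59% in A.G.-ES and 2.46% in untreated blood had a LEF1 UMI, at median depths of 5270 and 8811 UMIs. TCF7 was detected in 10.8% and 15.8% of the same B-cell barcodes. Both markers of the label thus stood above that background, and GATA3 and ITGB1 were detected in most members too.

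Among CD4 T barcodes, 7.04% carried a CCR7 UMI in A.G.-ES blood (112 of 1591, interval 5.83 to 8.41%) and 5.32% in untreated blood (20 of 376, interval 3.28 to 8.10%). The intervals overlapped. With every barcode thinned to 1500 UMIs the shares were 2.36% in A.G.-ES (37 of 1565, interval 1.67 to 3.24%) and 1.90% in untreated blood (7 of 369, interval 0.766 to 3.87%), after leaving out 26 and 7 shallower barcodes. A difference in CCR7 detection between the libraries was not detectable at this depth.

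Cells not known for CCR7 served as a background level, and the part of free RNA in it was not tested. SOX13-high T barcodes had a CCR7 UMI in 0.829% of cases in A.G.-ES and 0.652% in untreated blood, at median depths of 4292 and 4045.5 UMIs. Thinned to 1500 UMIs, these shares were 0.209% and 0.103%, below the CD4 T shares in both libraries. Monocyte barcodes gave 0 of 92 in A.G.-ES, with an exact binomial upper limit of 3.93%, and 2 of 52 in untreated blood (3.85%). Thinned to 1500 UMIs, the untreated monocyte share was 1 of 51 (1.96%, interval 0.0496 to 10.4%), close to the CD4 T share there. CD8 T barcodes stood near the CD4 T level when thinned (1.90% in A.G.-ES, 2.99% in untreated blood). B-cell barcodes stood above it, at 8.79% and 11.9%, and B cells are known to use CCR7.

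**Figure D1:**
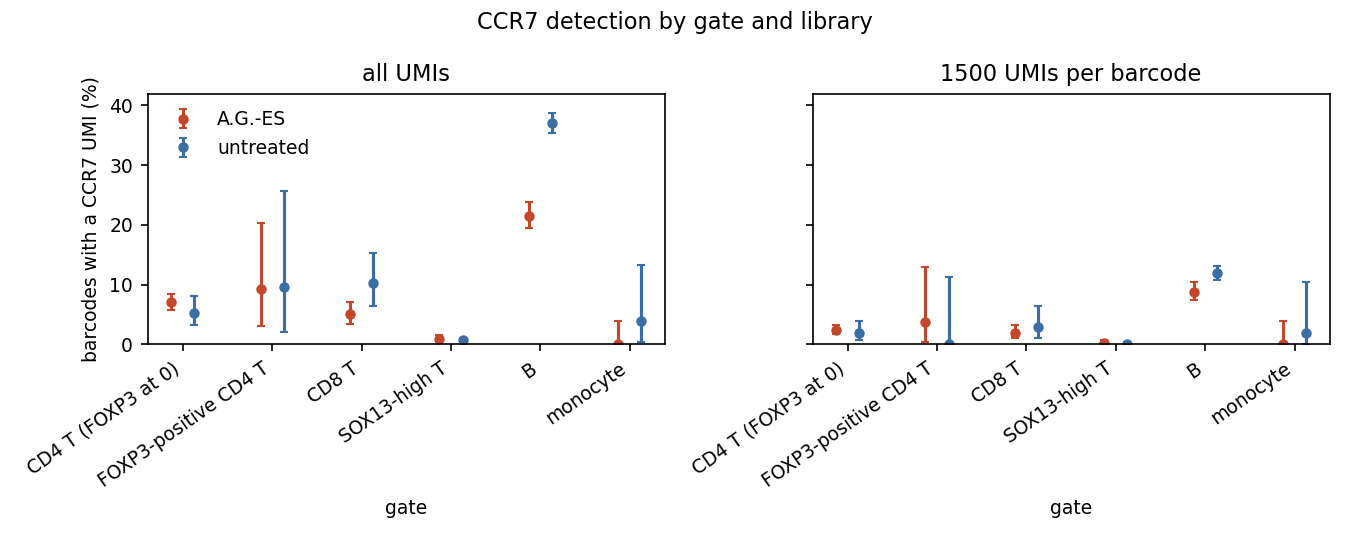
Share of barcodes with at least 1 CCR7 UMI (percent, y axis) in 6 gates (x axis), with all UMIs on the left and after thinning to 1500 UMIs per barcode on the right. Points are the A.G.-ES and the untreated library, and bars are 95% exact binomial intervals. CD4 T barcodes stood at 7.04% and 5.32% with all UMIs, SOX13-high T barcodes at 0.829% and 0.652%, and B-cell barcodes at 21.5% and 37.0%.

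LEF1, FOXP1 and BACH2, 3 of 13 naive transcription factors with enough UMIs, were at least 1.5-fold higher in sum in CCR7-positive than in CCR7-zero barcodes of both libraries. Over all genes, 44 of 5078 were higher in both libraries (0.866%) and 163 were lower in both (3.21%). LEF1 stood at 1445 CPM in A.G.-ES members, against 865 CPM in CCR7-zero barcodes (ratio 1.67, interval 1.55 to 1.79). In untreated blood it stood at 1861 CPM in members, against 1116 CPM in CCR7-zero barcodes (ratio 1.67, interval 1.47 to 1.89). The log2 ratio was 0.74 in both libraries. This contrast is part of how the members were chosen, so it is described without a test.

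LEF1 varied widely among barcodes of each kind. Per 10000 UMIs of a barcode, LEF1 ran from 0 through a median of 11.4 to 91.8 in A.G.-ES members, against 0, 5.57 and 79.4 in CCR7-zero barcodes. In untreated members it ran from 0.582 through 14.1 to 58.2, against 0, 9.42 and 57.0 in CCR7-zero barcodes. The ranges overlapped almost entirely and the medians differed. With equal depth of 1500 UMIs, LEF1 was detected in 78.6% of A.G.-ES members against 56.4% of CCR7-zero barcodes. In untreated blood it was detected in 80% of members (interval 56.3 to 94.3%) against 72.8% (interval 67.8 to 77.4%), and these intervals overlapped. Summed at that depth, the log2 ratio in untreated blood was 0.47, short of 1.5-fold. In untreated blood the 4 members with at least 2 CCR7 UMIs held 112 LEF1 UMIs (3743 CPM), and the 16 with 1 held 178 (1414 CPM), against 1116 CPM in CCR7-zero barcodes.

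FOXP1 stood at 1080 CPM in A.G.-ES members against 647 CPM in CCR7-zero barcodes (log2 0.74), and at 1078 CPM in untreated members against 418 CPM (log2 1.37). BACH2 stood at 1587 CPM in A.G.-ES members against 987 CPM in CCR7-zero barcodes (log2 0.68), and at 1181 CPM in untreated members against 728 CPM (log2 0.70). The untreated sums leaned on few barcodes: 1 member held 47 of the 168 FOXP1 UMIs and 1 member held 69 of the 184 BACH2 UMIs. The median per 10000 UMIs showed the same, since BACH2 was at 4.09 in untreated members, against 5.11 in CCR7-zero barcodes, while in A.G.-ES it was at 11.6 and 6.33. BACH2 in untreated blood did not reach 1.5-fold with the SOX13, RHEX and B-cell genes of the gate at 0 (log2 0.21). It also fell short at 1500 UMIs per barcode (log2 0.42). Scaling by the trimmed mean of M-values (TMM) moved untreated log2 ratios of this contrast by -0.14, and BACH2 there again fell short of 1.5-fold. FOXP1 in A.G.-ES did not reach 1.5-fold at 1500 UMIs per barcode (log2 0.56).

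TCF7 differed less. It stood at 167 CPM in A.G.-ES members against 129 CPM in CCR7-zero barcodes (ratio 1.29, interval 1.04 to 1.59), and at 167 CPM in untreated members against 147 CPM (ratio 1.14, interval 0.730 to 1.70). SATB1, a chromatin organiser of T cells listed with the naive factors, was lower in members (log2 -0.45 in A.G.-ES, -0.25 in untreated blood). KLF2, which drives S1PR1 expression in mouse T cells, stood at 135 and 128 CPM in members, against 131 and 129 CPM in CCR7-zero barcodes. A gene was counted as higher or lower when it passed 1.5-fold with at least 50 UMIs over the summed barcodes compared. None of the 13 naive transcription factors was lower by that measure in both libraries.

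The naive factors and GATA3 were followed over barcodes with 0, 1, and 2 or more CCR7 UMIs. In A.G.-ES blood LEF1 stood at 865, 1437 and 1480 CPM in that order, FOXP1 at 647, 1047 and 1215 CPM, and BACH2 at 987, 1483 and 2010 CPM. GATA3, a T-cell transcription factor, stood at 1134, 659 and 163 CPM, and ITGB1, the beta-1 integrin chain, at 1060, 764 and 471 CPM. The levels ran in 1 direction for these 5 genes, and those of S100A4, an S100 protein, did not (505, 390 and 453 CPM). The classes with 1 and with 2 or more had overlapping intervals for LEF1 and FOXP1. Classes were set by CCR7, which chose the members, and cells of 1 library are not replicates, so no test was made. Other naive factors took other courses in A.G.-ES blood, where SATB1 stood at 1953, 1471 and 1275 CPM, TCF7 at 129, 172 and 145 CPM, and KLF2 at 131, 147 and 85.5 CPM. In untreated blood LEF1 stood at 1116, 1414 and 3743 CPM, FOXP1 at 418, 540 and 3342 CPM, and BACH2 at 728, 556 and 3810 CPM. GATA3 stood there at 1256, 882 and 201 CPM and SATB1 at 1997, 1311 and 3242 CPM. In the same library ITGB1 stood at 2244, 2169 and 568 CPM and S100A4 at 580, 763 and 0 CPM. The untreated class with 2 or more CCR7 UMIs held 4 barcodes. IL7R, the interleukin-7 receptor that keeps naive and memory T cells alive, stood at 1378, 1221 and 1052 CPM in A.G.-ES blood and at 1192, 937 and 1571 CPM in untreated blood.

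**Figure D2:**
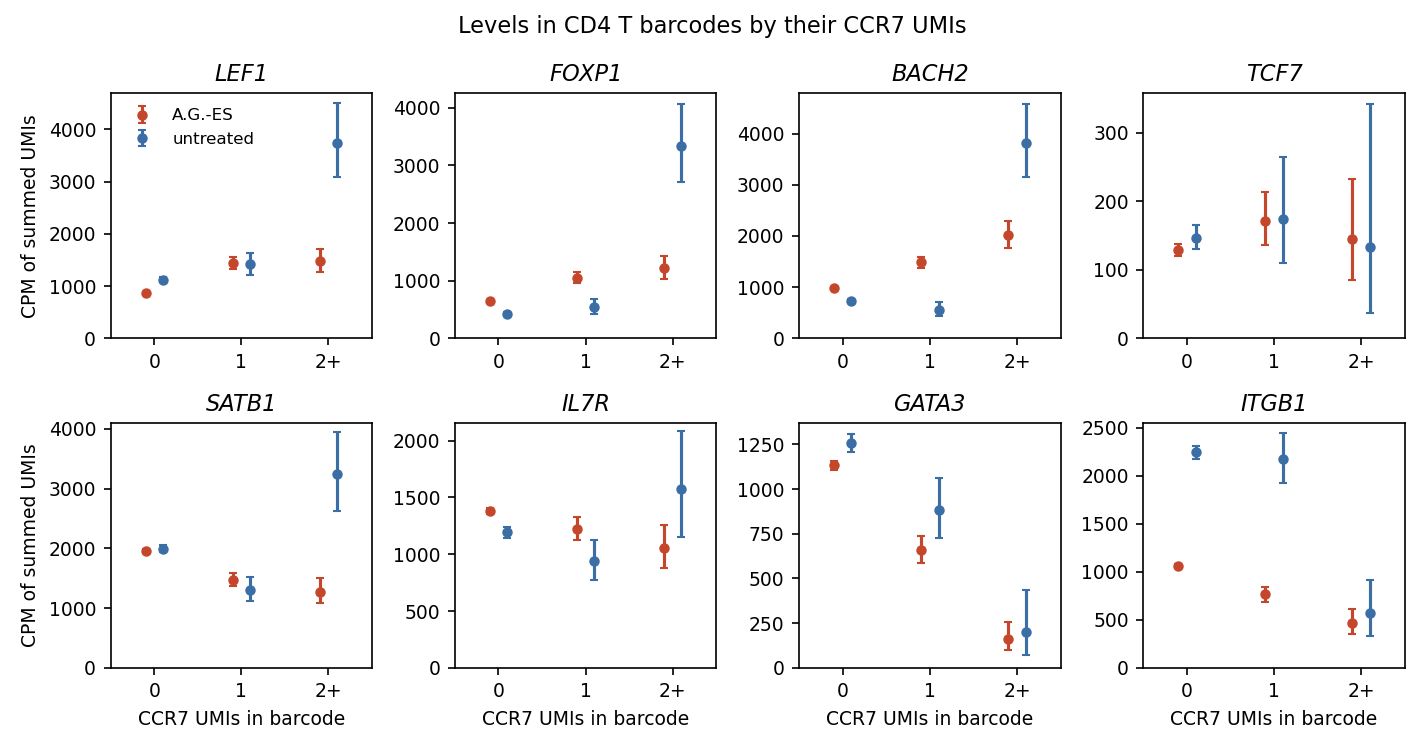
CPM of summed UMIs (y axis, 1 scale per gene) in CD4 T barcodes with 0, 1, and 2 or more CCR7 UMIs (x axis) for 8 genes. Points are the A.G.-ES and the untreated library, and bars are 95% Poisson intervals. In A.G.-ES, LEF1, FOXP1 and BACH2 run upward and GATA3 and ITGB1 downward with CCR7, and the untreated class with 2 or more rests on 4 barcodes.

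The genes highest in CCR7-positive barcodes in both libraries reached beyond the naive factors. Those reported here were SKIL, PLAC8, CEACAM1, ABTB2, AFF3, NBEA, RASGEF1B, IL6R and TSHZ2, ranked by the ratio nearer to 1. PLAC8 stood at 719 CPM in A.G.-ES members against 276 CPM in CCR7-zero barcodes (ratio 2.61, interval 2.34 to 2.90), and at 623 CPM in untreated members against 222 CPM (ratio 2.81, interval 2.23 to 3.51). It was detected in 74.1% of A.G.-ES members against 33.5% of CCR7-zero barcodes and in 65% of untreated members against 27.5%, so the difference was one of how many barcodes carried it.

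AFF3, a nuclear protein of the AF4 family, stood at 645 CPM in A.G.-ES members against 297 CPM in CCR7-zero barcodes, and at 1239 CPM in untreated members against 402 CPM. TSHZ2, a zinc-finger homeobox factor, stood at 852 CPM in A.G.-ES members against 431 CPM, and at 449 CPM in untreated members against 190 CPM. NBEA, an anchor protein of protein kinase A, stood at 302 CPM in A.G.-ES members against 140 CPM and at 225 CPM in untreated members against 56.7 CPM. In untreated blood 1 member held 62 of the 193 AFF3 UMIs, and TSHZ2 was detected in 6 of 20 members. At 1500 UMIs per barcode, the shares with a TSHZ2 UMI were 52.7% of A.G.-ES members against 29.2% of CCR7-zero barcodes. In untreated blood they were 25% of members (interval 8.66 to 49.1%) against 13.8% (interval 10.3 to 17.8%), and these intervals overlapped.

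The others rested on fewer counts. SKIL, a repressor of SMAD signalling, had 34 UMIs in A.G.-ES members and 8 in untreated members (log2 1.72 and 1.25). IL6R, the interleukin-6 receptor chain, had 23 and 9 UMIs (log2 1.03 and 1.14). For CEACAM1, an adhesion receptor, the log2 ratio in untreated blood was 1.14 as counted and -0.73 at 1500 UMIs per barcode, and its 15 UMIs there do not settle a direction. RASGEF1B, an exchange factor of Ras-family proteins, owed 14 of 20 untreated UMIs and 17 of 38 A.G.-ES UMIs to 1 member each. ABTB2 had 65 and 13 UMIs (log2 1.13 and 1.39), and with the SOX13, RHEX and B-cell genes of the gate at 0 its untreated log2 ratio was 0.21.

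GATA3 was among the listed memory and effector genes that were lower in members. It stood at 561 CPM in A.G.-ES members against 1134 CPM in CCR7-zero barcodes (ratio 0.495, interval 0.442 to 0.552), and at 751 CPM in untreated members against 1256 CPM (ratio 0.598, interval 0.492 to 0.720). Per 10000 UMIs the median was 2.59 in A.G.-ES members against 7.80 in CCR7-zero barcodes, and 4.07 in untreated members against 10.4. In untreated blood GATA3 did not reach 1.5-fold without the highest doublet scores (log2 -0.47), at 1500 UMIs per barcode (log2 -0.43) or with the SOX13, RHEX and B-cell genes of the gate at 0 (log2 -0.28).

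Of 24 memory and effector genes with enough UMIs, 0 were higher and 4 were lower in both libraries, namely GATA3, HOPX, IL2RB and CD40LG, beside 0.866% higher and 3.21% lower over all genes. HOPX, a homeodomain protein of effector memory T cells, stood at 42.1 CPM in A.G.-ES members against 152 CPM in CCR7-zero barcodes. In untreated members it stood at 70.6 CPM against 121 CPM. HOPX had fewer than 50 UMIs in members of each library and reached the minimum through CCR7-zero barcodes. At 1500 UMIs per barcode it was detected in 3.57% of A.G.-ES members against 18.7% of CCR7-zero barcodes. In untreated blood these shares were 15% (3 of 20 members) and 16.6%. IL2RB, the beta chain of the interleukin-2 receptor, had 17 UMIs in A.G.-ES and 4 UMIs in untreated members, and CD40LG, the ligand by which helper cells reach B cells, had 14 and 3, so both reached the minimum of 50 UMIs through CCR7-zero barcodes. Their directions were not stable: IL2RB in untreated blood gave log2 0.60 at 1500 UMIs per barcode, and CD40LG in A.G.-ES gave 0.42 with at least 2 CCR7 UMIs. ITGB1 stood at 706 CPM in A.G.-ES members against 1060 CPM in CCR7-zero barcodes (log2 -0.59), and at 1861 CPM in untreated members against 2244 CPM (log2 -0.27). S100A4, a calcium-binding protein of memory T cells, gave log2 ratios of -0.33 in A.G.-ES and 0.09 in untreated blood, so its direction was not shared.

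The lowest genes by the same ranking were GHR, SYTL3, CDK14, ELOVL6, ZNF618, SETBP1, ZNF608, ITSN1, SIRT2 and IMPA1. GHR, the growth hormone receptor, stood at 67.4 CPM in A.G.-ES members against 327 CPM in CCR7-zero barcodes (ratio 0.206, interval 0.147 to 0.282), and at 38.5 CPM in untreated members against 320 CPM (ratio 0.120, interval 0.0440 to 0.263). It was detected in 12.5% of A.G.-ES members against 45.2% of CCR7-zero barcodes, and in 15% of untreated members against 36.0%. SYTL3, a Rab27-binding protein of vesicle transport, stood at 60.6 CPM in A.G.-ES members against 233 CPM and at 109 CPM in untreated members against 328 CPM. CDK14, a cyclin-dependent kinase, had 26 UMIs in A.G.-ES and 2 UMIs in untreated members, and the other 7 genes had between 1 and 15 UMIs in members of either library. Both GHR and SYTL3 kept a ratio past 1.5-fold in both libraries under every alternative that gave a value.

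**Figure D3:**
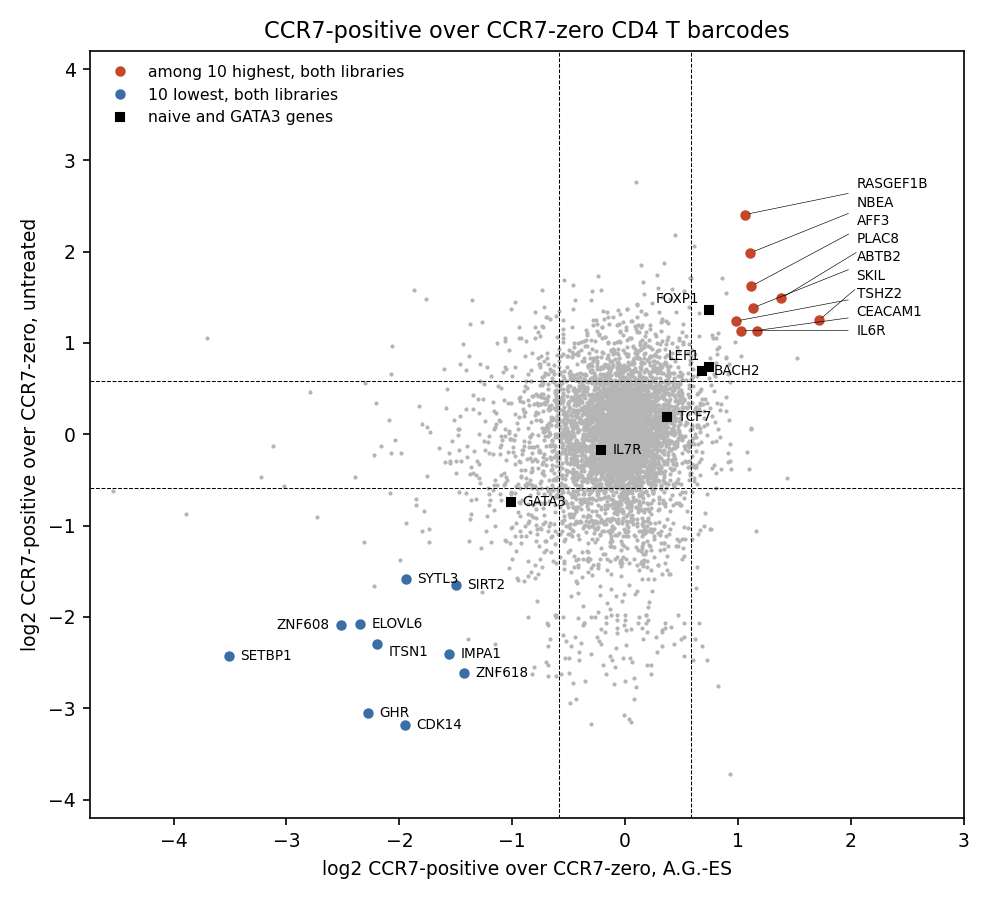
Log2 ratio of CCR7-positive over CCR7-zero CD4 T barcodes in A.G.-ES (x axis) and in untreated blood (y axis) for 5078 genes with at least 50 UMIs in each library. Dashed lines mark 1.5-fold, coloured points are the reported genes among the 10 highest and 10 lowest in both libraries, and black squares are 6 named T-cell genes. GHR lies far to the lower left, PLAC8, AFF3 and NBEA to the upper right, and TCF7 and IL7R inside the lines.

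The direction of a gene in 1 library said little about the other in most of the table. Of the 5078 genes, 2667 had the same sign in both libraries. Members of A.G.-ES blood were 1.5-fold higher than CCR7-zero barcodes for 501 of 8029 genes (6.24%) and lower for 1352 (16.8%). Members of untreated blood were higher for 598 of 5104 genes (11.7%) and lower for 822 (16.1%). Past 1.5-fold in both, 20 genes were higher in A.G.-ES and lower in untreated blood, and 75 the reverse.

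Receptors for homing and survival did not move as a group. Of 8 homing and egress genes with enough UMIs in both libraries, 0 were higher and 0 were lower in both. S1PR1, the receptor that lets T cells leave lymph nodes, stood at 80.9 CPM in A.G.-ES members against 130 CPM in CCR7-zero barcodes and at 135 CPM in untreated members against 128 CPM. Of 13 survival and cytokine receptor genes, IL6R was higher in both and BCL2L11, a death-promoting BCL2-family gene, was lower in both, with 10 UMIs in A.G.-ES and 16 in untreated members, beside 0.866% higher and 3.21% lower over all genes. BCL2L11 reached the minimum of 50 UMIs through CCR7-zero barcodes, and at 1500 UMIs per barcode it gave log2 0.20 in untreated blood. IL7R gave log2 ratios of -0.21 in A.G.-ES and -0.17 in untreated blood.

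Glucocorticoid-responsive genes included 2 of 8 that were lower in both libraries and 0 that were higher, beside 3.21% and 0.866% of all genes. FKBP5, a co-chaperone of the glucocorticoid receptor, stood at 377 CPM in A.G.-ES members against 666 CPM in CCR7-zero barcodes, and at 783 CPM in untreated members against 1176 CPM. NR3C1, the receptor itself, stood at 211 CPM in A.G.-ES members against 377 CPM and at 263 CPM in untreated members against 552 CPM. Among 16 interferon-response genes RSAD2, IFI44L and XAF1 were lower in both and 0 were higher, beside the same shares of all genes. RSAD2, an antiviral enzyme, had 26 UMIs in A.G.-ES and 6 UMIs in untreated members, and the other 2 had at most 5, so that these genes reached the minimum through CCR7-zero barcodes. XAF1 gave log2 0.96 in A.G.-ES at 1500 UMIs per barcode and 0.34 with at least 2 CCR7 UMIs. The regulatory T list, with FOXP3 outside it, had 3 genes with enough UMIs in both libraries, of which IL2RA was lower in both (33.7 against 61.2 CPM in A.G.-ES, 19.3 against 50.5 CPM in untreated blood). IL2RA reached the minimum through CCR7-zero barcodes in both libraries. In untreated members IL2RA rested on 3 UMIs, with an interval of the ratio from 0.0773 to 1.15, and gave log2 0.42 at 1500 UMIs per barcode.

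Other lists held no gene past 1.5-fold in the same direction in both libraries, beside 0.866% higher and 3.21% lower over all genes. With shares that low, no such gene in a short list says little. This was so for 22 T-cell receptor signalling genes, 18 early response genes, 77 ribosomal protein genes, 58 nuclear genes of oxidative phosphorylation, 10 heat shock genes, 8 cell division genes, 5 follicular helper genes, 2 GIMAP genes and 2 helper cytokines. Medians over the naive list were 0.11 in A.G.-ES and 0.18 in untreated blood, and over the memory and effector list -0.48 and -0.27. Over all genes they were -0.06 in A.G.-ES and -0.01 in untreated blood.

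Naive factors and GATA3 were detected in the same members. LEF1 and GATA3 were detected together in 68 of 112 A.G.-ES and 16 of 20 untreated members, while GATA3 was found in 4.24% of A.G.-ES and 2.67% of untreated B-cell barcodes. LEF1 without GATA3 was found in 40 A.G.-ES members (35.7%) against 18.7% of CCR7-zero barcodes, and in 4 untreated members (20%) against 14.3%. GATA3 without LEF1 was found in 4 A.G.-ES members (3.57%) against 19.1% of CCR7-zero barcodes. It was found in 0 of 20 untreated members (exact binomial upper limit 16.8%), against 39 of 356 CCR7-zero barcodes.

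Barcodes with no UMI of GATA3, ITGB1 and S100A4 made up 12 of 112 A.G.-ES members (10.7%) against 6.56% of CCR7-zero barcodes, and 2 of 20 untreated members (10%) against 2.53%. All 3 genes were detected in 25 A.G.-ES members (22.3%) against 38.8% of CCR7-zero barcodes, and in 9 untreated members (45%) against 46.1%. Members with LEF1, TCF7 and BACH2 and none of GATA3, ITGB1 and S100A4 numbered 8 in A.G.-ES and 1 in untreated blood.

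Set against other gates, the members had the highest LEF1 of the 7 gates in each library. LEF1 stood at 1445 CPM in A.G.-ES and 1861 CPM in untreated members, at 568 and 865 CPM in FOXP3-positive CD4 T barcodes, at 325 and 603 CPM in SOX13-high T barcodes, at 133 and 165 CPM in CD8 T barcodes, and at 8.47 and 3.31 CPM in B-cell barcodes. TSHZ2 was a gene of the CD4 gates, at 852 and 449 CPM in members, 353 and 134 CPM in FOXP3-positive barcodes, and at most 16.9 CPM in CD8 T, SOX13-high T, B-cell and monocyte barcodes. PLAC8 and AFF3 were higher elsewhere: PLAC8 stood at 1121 and 1442 CPM in SOX13-high T barcodes and AFF3 at 1327 and 1926 CPM in B-cell barcodes. GHR was highest in FOXP3-positive CD4 T barcodes, at 508 CPM in A.G.-ES and 1501 CPM in untreated blood.

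**Figure D4:**
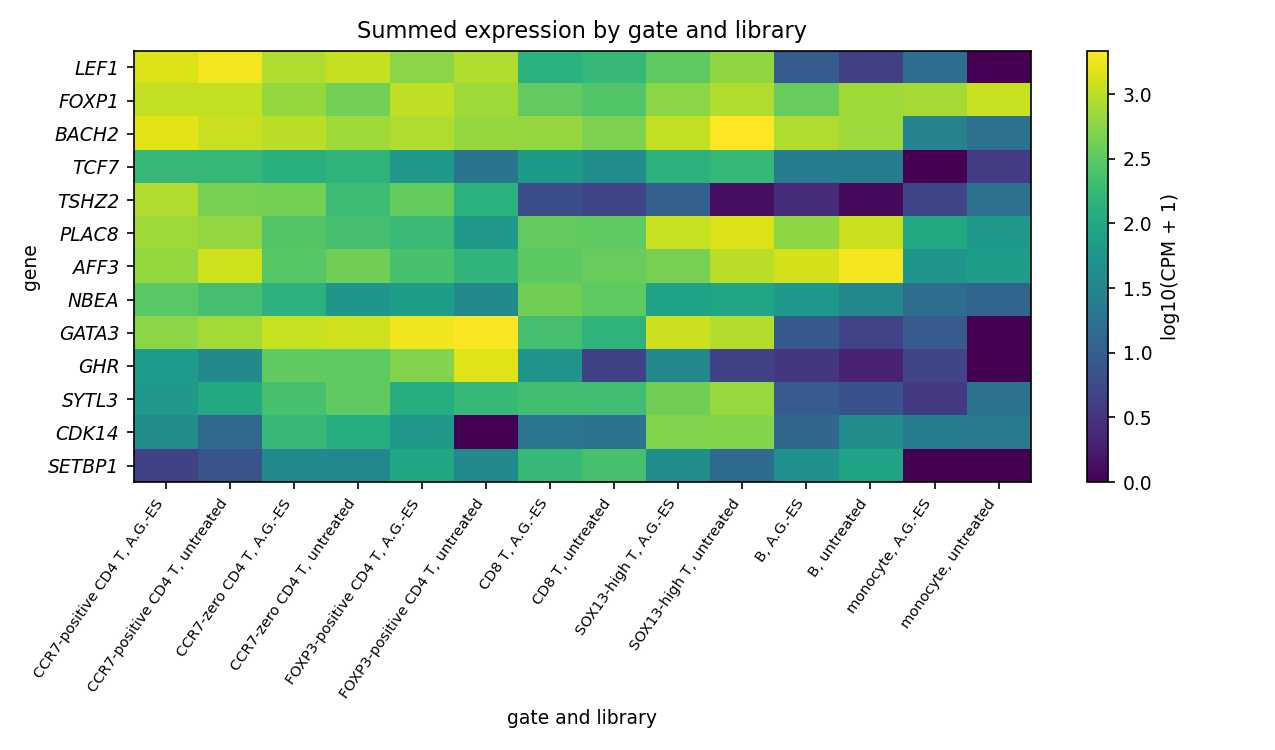
Level of 13 genes (rows) in 7 gates and 2 libraries (columns), coloured by log10 of CPM plus 1 of the summed UMIs. LEF1 is brightest in the CCR7-positive columns, at 1445 CPM in A.G.-ES and 1861 CPM in untreated blood, TSHZ2 is dark outside the CD4 gates, and GATA3 and GHR are brightest in FOXP3-positive CD4 T barcodes.

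Between treatments, many ribosomal protein and early response genes were higher and ITGB1 and the annexins ANXA1 and ANXA2 were lower in A.G.-ES than in untreated members. FOXP1 and TCF7 gave log2 ratios of 0.00 for A.G.-ES over untreated, and BACH2 gave 0.43. LEF1 gave -0.36 by totals and 0.02 with scaling by the trimmed mean of M-values (TMM), which sets the bulk of genes level between libraries. Of 2388 genes with enough UMIs, 258 were 1.5-fold higher in A.G.-ES members (10.8%) and 590 were lower (24.7%), with a median log2 ratio of -0.20. With TMM scaling, which moved every log2 ratio up by 0.39, the split turned to 584 higher and 184 lower.

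The same contrast in CCR7-zero barcodes gave 702 of 8466 genes higher (8.29%) and 1255 lower (14.8%), with a median log2 ratio of -0.16. The 10 genes highest in A.G.-ES members were FTL, TNFSF8, PATJ, RPL37A, DUSP2, BAG3, RASSF5, RBPMS, RNF122 and NFIA. All 10 were also higher in A.G.-ES CCR7-zero barcodes, by log2 0.44 to 2.19. RPL37A, a protein of the large ribosomal subunit, stood at 3174 CPM in A.G.-ES members and 629 CPM in untreated members (ratio 5.05, interval 4.12 to 6.25). Per 10000 UMIs it ran from 0 through a median of 32.0 to 70.1 in A.G.-ES members and from 0 through 5.85 to 20.5 in untreated members. In CCR7-zero barcodes its log2 ratio was 1.71.

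DUSP2, a phosphatase of MAP kinases induced by stimulation, stood at 185 CPM in A.G.-ES members and 38.5 CPM in untreated members, with a log2 ratio of 2.27 in members and 2.19 in CCR7-zero barcodes. The other genes had 2 to 7 UMIs in untreated members, and their intervals were wide. These genes, and DUSP2 with 6 UMIs in untreated members, reached the minimum count through A.G.-ES members, the group in which they were higher. FTL, the ferritin light chain, had 70 UMIs in A.G.-ES and 2 UMIs in untreated members (ratio 9.19, interval 2.45 to 77.3). At 1500 UMIs per barcode it was detected in 16.1% of A.G.-ES members and in 0 of 20 untreated members. Its log2 ratio of 0.39 there is a bound against 3 counts in untreated members. TNFSF8, the CD30 ligand, had 48 and 2 UMIs, BAG3, a co-chaperone, 53 and 3, and RASSF5, a regulator of integrin adhesion, 47 and 3. Ribosomal protein genes and FTL have near-identical pseudogene copies in mammals, and how the authors' counting shared reads among such copies is not known here.

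The 10 genes lowest in A.G.-ES members were HIVEP1, NRIP1, TIPARP, ZNF207, TARS1, MAPKAP1, TBC1D1, RAPGEF2, GBF1 and ABL2. HIVEP1, a zinc-finger factor, stood at 33.7 CPM in A.G.-ES members and 231 CPM in untreated members (ratio 0.146, interval 0.0800 to 0.259), and at 80.0 and 158 CPM in CCR7-zero barcodes. The other 9 gave log2 ratios of -1.88 to -1.73 in members and -1.70 to -0.27 in CCR7-zero barcodes, on 28 to 46 UMIs in A.G.-ES and 26 to 42 UMIs in untreated members. All 10 were lower in A.G.-ES in both kinds of CD4 T barcode. For NRIP1, a nuclear receptor corepressor, the log2 ratio was 0.03 among members with at least 2 CCR7 UMIs.

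**Figure D5:**
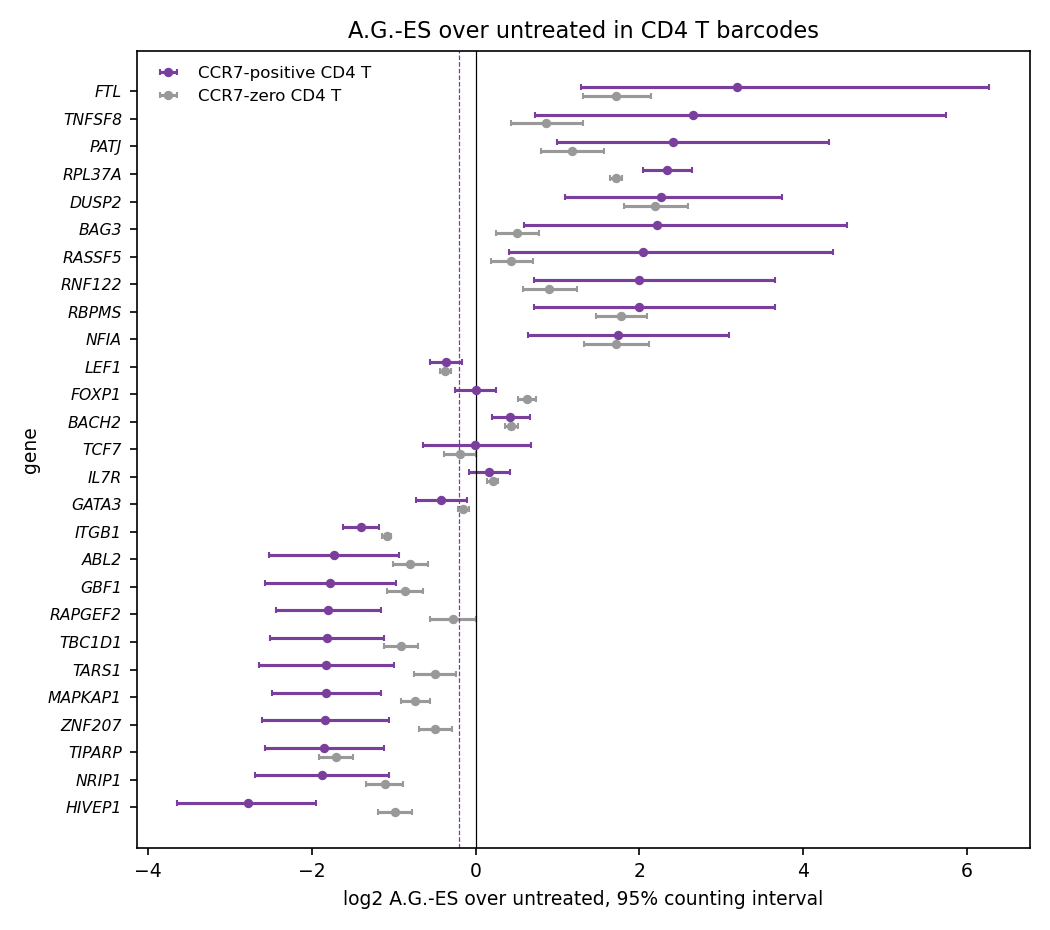
Log2 ratio of A.G.-ES over untreated (x axis) for the 10 highest genes, the 10 lowest genes and 7 named T-cell genes (y axis) in CCR7-positive and in CCR7-zero CD4 T barcodes. Points are ratios of summed CPM, bars are 95% counting intervals, and the dashed line is the median of all genes in members (-0.20). All 10 highest genes lie right of 0 and all 10 lowest left of 0 in both kinds of barcode.

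Of 75 ribosomal protein genes, 32 were 1.5-fold higher in A.G.-ES members and 0 were lower, with a median log2 ratio of 0.54 (0.93 with TMM scaling), beside 10.8% higher and 24.7% lower over all genes. In CCR7-zero barcodes 5 of 77 were higher and 1 was lower, with a median of 0.27, beside 8.29% higher and 14.8% lower over all genes. Of 13 early response genes 6 were higher (DUSP2, JUN, TNFAIP3, BTG1, FOS and IER5) and 2 lower (KLF6 and NFKBIA), with a median of 0.56 (0.95 with TMM scaling). KLF6 gave log2 0.62 with at least 2 CCR7 UMIs. In CCR7-zero barcodes 7 of 23 were higher and 0 lower, with a median of 0.42. The shares over all genes given for the ribosomal list apply to these counts too. JUN, an AP-1 subunit, stood at 401 CPM in A.G.-ES members and 154 CPM in untreated members, and TNFAIP3, an inhibitor of NF-kB signalling, at 750 and 353 CPM. BTG1, an antiproliferative gene of quiescent lymphocytes, stood at 1137 CPM in A.G.-ES members and 578 CPM in untreated members.

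Of 15 memory and effector genes with enough UMIs, 6 were lower in A.G.-ES members (ITGB1, ANXA1, ANXA2, S100A11, S100A10 and S100A4) and 1, the inhibitor of DNA binding ID2, was higher, beside 24.7% lower and 10.8% higher over all genes. The list's median was -0.42 by totals and -0.03 with TMM scaling. ITGB1 stood at 706 CPM in A.G.-ES members and 1861 CPM in untreated members (ratio 0.379, interval 0.326 to 0.442), and its log2 ratio was -1.40 in members and -1.08 in CCR7-zero barcodes. With TMM scaling it was -1.01 in members. ANXA1, a phospholipid-binding protein of memory T cells, stood at 194 CPM in A.G.-ES members and 475 CPM in untreated members. The S100 genes did not reach 1.5-fold with TMM scaling, where S100A4 gave -0.23, S100A10 -0.23 and S100A11 -0.44. Among the 4 untreated members with at least 2 CCR7 UMIs S100A4 had 0 UMIs, against 53 UMIs in the 21 A.G.-ES members of that class. In that class ANXA1 (log2 0.49), S100A10 (2.00) and S100A11 (1.71) were likewise higher in A.G.-ES, and ID2 gave -0.16 at 1500 UMIs per barcode.

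Among 13 naive transcription factors KLF3, a transcriptional repressor of the KLF family, was higher in A.G.-ES members (log2 0.62). TXK, a Tec-family kinase gene listed with them, was lower (log2 -1.31). Over all genes 10.8% were higher and 24.7% lower, so the list did not exceed those shares. Its median was -0.10 by totals and 0.29 with TMM scaling. TXK rested on 37 UMIs in A.G.-ES and 24 UMIs in untreated members, and its log2 ratio was 1.10 at 1500 UMIs per barcode. GATA3 gave -0.42 by totals and -0.03 with TMM scaling. Of 17 T-cell receptor signalling genes CD27 was higher and CD28, CD6, FYN and LCK were lower, which is close to the 10.8% higher and 24.7% lower over all genes. FKBP5 stood at 377 CPM in A.G.-ES members and 783 CPM in untreated members. It was lower in A.G.-ES CCR7-zero barcodes as well (666 and 1176 CPM).

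Markers of other cells were summed over whole lists. Of 9 cytotoxic and NK genes, 8 had a UMI in A.G.-ES and 6 in untreated members, with sums of 116 and 70.6 CPM, against 348 and 78.3 CPM in CCR7-zero barcodes and 11100 and 7240 CPM in CD8 T barcodes. NCR1 was at 0 in both member groups. Of 10 monocyte genes, 7 and 6 had a UMI, summing to 116 CPM in A.G.-ES and 263 CPM in untreated members, against 153 and 58.7 CPM in CCR7-zero barcodes and 10106 and 10868 CPM in monocyte barcodes. In sum, monocyte genes were higher in untreated members and lower in A.G.-ES members, and LYZ and CD68 were at 0 in both member groups. The monocyte sums rested on 69 UMIs in A.G.-ES and 41 UMIs in untreated members. In untreated members VCAN reached 17.6 per 10000 UMIs in 1 barcode, with an upper quartile of 0, so few barcodes can set that sum. Of 7 B-cell genes outside the gate, 6 and 5 had a UMI, summing to 40.4 and 109 CPM in members, against 61.0 and 104 CPM in CCR7-zero barcodes. Platelet genes summed to 10.1 and 38.5 CPM in members, against 21.1 and 47.9 CPM. Plasmablast genes summed to 94.3 and 96.3 CPM in members, against 103 and 392 CPM, and all 5 erythroid genes were at 0 in members. The part of these cells in the differences above was not tested.

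Transcripts of dividing cells in untreated members came from few barcodes. MKI67 and TOP2A, which mark dividing cells, had 3 UMIs together in A.G.-ES members and 69 in untreated members. In untreated blood 2 of 20 members held 68 of those 69 UMIs, and in A.G.-ES blood 0 of 112 members had 2 or more (exact binomial upper limit 3.24%). Among CCR7-zero barcodes 22 of 1479 in A.G.-ES and 16 of 356 in untreated blood had 2 or more, so both libraries held such CD4 T barcodes. Without cycling barcodes, 270 genes were higher and 531 lower in A.G.-ES members. LEF1 in untreated blood was then higher in members than in CCR7-zero barcodes by log2 0.95, and its log2 ratio between A.G.-ES and untreated members was -0.64.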

How the data were processed

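Each library's deposited matrix holds unnormalized UMI counts by gene and cell barcode, from a SeekOne DD droplet kit that reads transcript 3′ ends, per the labels' protocols. The sources used here name no aligner, counter, cell caller or genome build. No columns of other samples were present (0). All 26761 gene names matched a RefSeq gene table of the species, used to find Y-linked genes. The count tables gave no sequences, and none are printed.

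Gates were applied to raw UMIs. CD8 T barcodes had at least 2 CD8A plus CD8B UMIs and no CD4, SOX13-high T barcodes at least 2 SOX13 plus RHEX UMIs and no CD4 or CD8, B-cell barcodes at least 2 UMIs of the B-cell gate genes and no CD3 or CD4, and monocytes at least 2 CD14 plus CSF1R UMIs and no CD3. UMIs were summed per gate and library and given as CPM (per 1000000 UMIs of the sum). Ratios carry exact conditional binomial intervals, CPM Poisson intervals and shares Clopper-Pearson intervals, all at 95%. Where a sum was 0, a ratio was taken against a floor of 3 counts over that sum. A gene was called at 1.5-fold with at least 50 UMIs over both sums. No test was made, since each group has 1 library and the contrast with CCR7-zero barcodes is the one that chose the members. The counting was tested on simulated data.

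Doublets were not called beyond the gate. As an alternative, the highest Scrublet scores (scanpy 1.11.5) were taken out at 0.8% per 1000 barcodes, which removed 715 A.G.-ES and 523 untreated barcodes, among them 5 and 2 members. TMM factors came from edgeR 4.0.16 (R 4.3.3), and the rest from Python 3.11.15 with numpy 2.4.6, scipy 1.17.1 and pandas 2.3.3.

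Named genes were the marker genes, the 10 highest and 10 lowest of each contrast, and up to 4 members of each list with the most UMIs or with the ratios farthest from 1. GATA3, S100A4, S1PR1, KLF2 and PRLH, and list members named only beside a count, were chosen after their values were seen. Results of some genes are not reported here. The members and all lists were chosen with earlier results of these data known.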

Additional observations from a re-analysis of the deposited data

Results flagged for a closer look

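Of 287 listed genes with enough UMIs, 3 passed 1.5-fold in opposite directions in the 2 libraries for CCR7-positive over CCR7-zero CD4 T barcodes. The counting intervals of their ratios lay on opposite sides of 1. All 3 are genes of dividing cells, and the difference was not tested. Listed genes with opposite signs that fell short of 1.5-fold in either library, such as S100A4 and S1PR1, were not counted here. CENPF, a kinetochore protein, gave a log2 ratio of -1.77 in A.G.-ES (4 UMIs in members) and 1.48 in untreated blood (43 UMIs, 36 of them in 1 barcode). MKI67, a proliferation marker, had 0 UMIs in A.G.-ES members, so that its log2 ratio of -1.36 there is a bound against 3 counts over the summed members, and 1.47 in untreated blood (35 UMIs, 32 of them in 1 barcode). TOP2A, a DNA topoisomerase, gave -1.87 in A.G.-ES (3 UMIs) and 1.58 in untreated blood (34 UMIs, all in 1 barcode).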

How the results depend on the processing

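No paired analysis was possible because each group has 1 library. Single-gene ratios and list medians came to 154 results with 1416 alternative values. Of these, 1241 stayed within the counting interval or, for medians, within a shift of 1.5-fold. Another 157 moved beyond that and 18 changed direction. Gene counts and CCR7 shares were outside this tally and are given below where they moved. The causes were not tested. Higher and lower genes in A.G.-ES over untreated members numbered 584 and 184 with TMM scaling, 109 and 118 at 1500 UMIs per barcode, 74 and 67 with a minimum of 250 UMIs, 1258 and 3428 with no minimum, and 107 and 125 with at least 2 CCR7 UMIs, and 381 were lower with ribosomal, mitochondrial and haemoglobin genes out of the total. Genes higher and lower in CCR7-positive than in CCR7-zero barcodes of both libraries numbered 25 and 68 at 1500 UMIs, 11 and 26 with a minimum of 250, and 414 and 307 with no minimum. Higher genes numbered 215 with at least 2 CCR7 UMIs and 26 with the SOX13, RHEX and B-cell gate genes at 0. The share of CD4 T barcodes with CCR7 in A.G.-ES and untreated blood was 2.36% and 1.90% at 1500 UMIs, 3.94% and 2.10% at 2500 UMIs, and 1.32% and 1.06% for at least 2 CCR7 UMIs. Thinning to 1500 UMIs before the gate left 21 A.G.-ES and 0 untreated members, so it gave no value between libraries.

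Direction changed in A.G.-ES over untreated members with at least 2 CCR7 UMIs for NRIP1 (0.034), S1PR1 (0.034), S100A4 (2.18), ANXA1 (0.49), S100A10 (2.00), S100A11 (1.71) and KLF6 (0.62), and at 1500 UMIs for ID2 (-0.16) and TXK (1.10), all as log2 ratios. The S100A4 value is a bound against 3 counts, since the 4 untreated members of that class had 0 UMIs. In CCR7-positive over CCR7-zero barcodes it changed in A.G.-ES for CD40LG (0.42) and XAF1 (0.34) with at least 2 CCR7 UMIs and for XAF1 (0.96) at 1500 UMIs. In untreated blood it changed at 1500 UMIs for SETBP1 (0.038), CEACAM1 (-0.73), IL2RB (0.60), IL2RA (0.42) and BCL2L11 (0.20), and with equal weight per barcode for IL2RB (0.014).

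With 20 untreated members, a single barcode can hold a large part of a gene's UMIs, and detection of CCR7 at 1 UMI depends on depth.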

Other observations

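PRLH, which encodes prolactin releasing hormone, was chosen after its values were seen. In A.G.-ES blood it had 1 UMI in the 112 CCR7-positive members and 167 UMIs in 113 of the 1479 CCR7-zero CD4 T barcodes (7.64%, 23.5 CPM). In untreated blood it had 0 UMIs in both gates, and a floor of 3 counts applies to each. CTLA4, an inhibitory receptor of activated and regulatory T cells, had 43 UMIs in 23 A.G.-ES members (72.4 CPM) against 41.8 CPM in CCR7-zero barcodes, and 1 UMI in untreated members (6.42 CPM) against 22.2 CPM in CCR7-zero barcodes. ITGA4, the alpha-4 integrin chain, stood at 406 CPM in A.G.-ES members and 193 CPM in untreated members, with a log2 ratio of 1.08 in members and 0.70 in CCR7-zero barcodes.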
